A study of Mus musculus with 6 samples.

Results

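The smooth muscle-type contractile genes are the actins, myosin subunits, thin filament proteins and kinase that build and switch the contractile apparatus of smooth muscle. They were taken as a named set of 10 genes (Acta2, Actg2, Tagln, Cnn1, Cald1, Tpm1, Tpm2, Myl9, Myh11 and Mylk). The rule goes by gene symbol alone, and the set was chosen with earlier results of these data known. All 10 were found among the 52550 genes of the deposited table, and all 10 had enough reads to be tested, as did 16402 genes in all. RNA-seq was done on bone marrow-derived macrophages (BMDMs) of C57BL/6 mice, 3 libraries from MSR1 KO mice and 3 from MSR1 WT mice. Both groups were differentiated with 25 ng/ml M-CSF for 7 days and then kept for 48 h in transwell co-culture with bone marrow mesenchymal stem cells (BMSCs), so that each group had BMSCs in the facing chamber and neither was without them. MSR1 is the macrophage scavenger receptor 1, which takes up modified lipoproteins, and the KO was carried by the mice the macrophages came from rather than by a macrophage-restricted allele. Total counts per library ranged from 36143518 to 47417448. Counts of Msr1 itself were 2118, 1825 and 2000 with the KO and 7543, 9163 and 9219 with the WT allele, and its log2 fold change was -2.02 (SE 0.135, edgeR quasi-likelihood test, adjusted p = 0.0012). The libraries of each group therefore differed in Msr1 as their labels state, although Msr1 was not at 0 in the MSR1 KO libraries.

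In smooth muscle, contraction starts when calcium-bound calmodulin activates myosin light chain kinase, which phosphorylates the regulatory light chain of myosin II and lets the myosin heads pull on actin. Calponin, caldesmon, tropomyosin and transgelin lie along the actin filament and stiffen it or limit access of the myosin. Fibroblasts and marrow stromal cells make the same proteins when they take on a contractile state, and serum response factor (SRF) with its myocardin-family partners turns many of these genes on through CArG boxes. Macrophages carry mainly the cytoplasmic versions of these proteins.

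The DNA just upstream of the members was read first, because CArG boxes are the element that the contractile genes are known to share. RefSeq promoter windows of GRCm38.p6 (250 bases before to 50 after the transcript start) were at hand for 7 members, Acta2, Cnn1, Myl9, Tpm1, Tpm2, Cald1 and Mylk, but not for Tagln, Actg2 or Myh11. The CArG box was searched on either strand. Its exact form was in the window of 1 of the 7, Myl9, and in those of 488 of 27025 mouse genes (1.81%). With 1 G or C allowed in the A/T core, or the exact form, it was in 2 of the 7, Acta2 and Myl9, and in 3050 of all genes (11.3%). The sequences that hold the matches follow, 5′ to 3′ on the gene's own strand, with the CArG matches in capitals, beside the upstream bases of Cnn1, which hold neither form. Acta2 is shown as 30 bases around each of its sites, chr19:34255438-34255467 and chr19:34255388-34255417 (minus strand), because GENCODE M21 lists a newer version of this gene than the deposited table, one that starts farther upstream than RefSeq and holds both sites in its first exon. Myl9 is shown at chr2:156775214-156775419 and Cnn1 at chr9:22099003-22099215 (both plus strand), up to the first annotated exon base.
Acta2, far site: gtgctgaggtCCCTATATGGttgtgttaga
Acta2, near site: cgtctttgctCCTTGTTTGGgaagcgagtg
Myl9: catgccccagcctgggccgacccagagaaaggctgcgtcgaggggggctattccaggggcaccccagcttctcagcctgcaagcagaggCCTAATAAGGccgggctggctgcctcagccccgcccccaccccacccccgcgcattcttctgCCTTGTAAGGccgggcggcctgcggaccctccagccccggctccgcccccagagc
Cnn1: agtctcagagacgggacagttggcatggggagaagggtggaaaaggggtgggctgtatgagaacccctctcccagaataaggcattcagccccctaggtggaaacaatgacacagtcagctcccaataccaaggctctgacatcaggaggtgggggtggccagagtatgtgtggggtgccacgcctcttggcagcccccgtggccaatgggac
Counted from the RefSeq start, the sites of Acta2 began 84 and 34 bases upstream, and both were of the form with 1 G or C in the core. Myl9 had the exact box at 161 bases upstream and the relaxed form at 99. The stretch of Myl9 was 71.4% G and C with 12 CpG, and that of Cnn1 58.7% with 3. These matches describe the letters of the window only. Among the lists used below, 3 of 12 cytoplasmic paralogs had the exact form and 5 either form. For skeletal, cardiac and neuronal paralogs it was 5 and 7 of 18, and for SRF regulators 3 and 5 of 13. Other smooth muscle genes had 1 and 5 of 21, adhesion genes 1 and 2 of 14 and light chain switch genes 0 and 2 of 17. The marker lists of other cells held 0 exact forms.

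Of the 10 contractile genes, 7 were lower in MSR1 KO than in MSR1 WT libraries at an adjusted p under 0.05 by edgeR. These were Acta2, Actg2, Tagln, Tpm1, Tpm2, Myl9 and Mylk. The test was quasi-likelihood with Benjamini-Hochberg adjustment over the 16402 genes, of which 2.66% were lower. The set was chosen with earlier results of these data known, which the share of all genes does not allow for. Higher in MSR1 KO were 0 of 10 by edgeR, against 2.25% of all tested genes. At an unadjusted p under 0.05 edgeR had 9 members lower and 0 higher (10.2 and 8.65% of all tested genes), and DESeq2 called 8 lower and 0 higher at an adjusted p under 0.05 (5.18 and 4.43%). Cnn1, Cald1 and Myh11 did not pass at an adjusted p under 0.05 by edgeR, while Myh11 passed by DESeq2 (adjusted p = 0.0064). In 8 of the 10 every MSR1 KO library was below every MSR1 WT library, which held for 13.4% of all tested genes. By the definition used in the study, a fold change over 1.5 with an unadjusted p under 0.05, 7 members were lower against 5.05% of all genes, since Myh11 met it and Tpm1 did not, and 0 were higher against 3.59%. The median log2 fold change of the members was -0.72, and that of all tested genes was -0.0023. In a bulk library, fewer cells of a type and less of the RNA in each cell cannot be told apart.

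**Figure D1:**
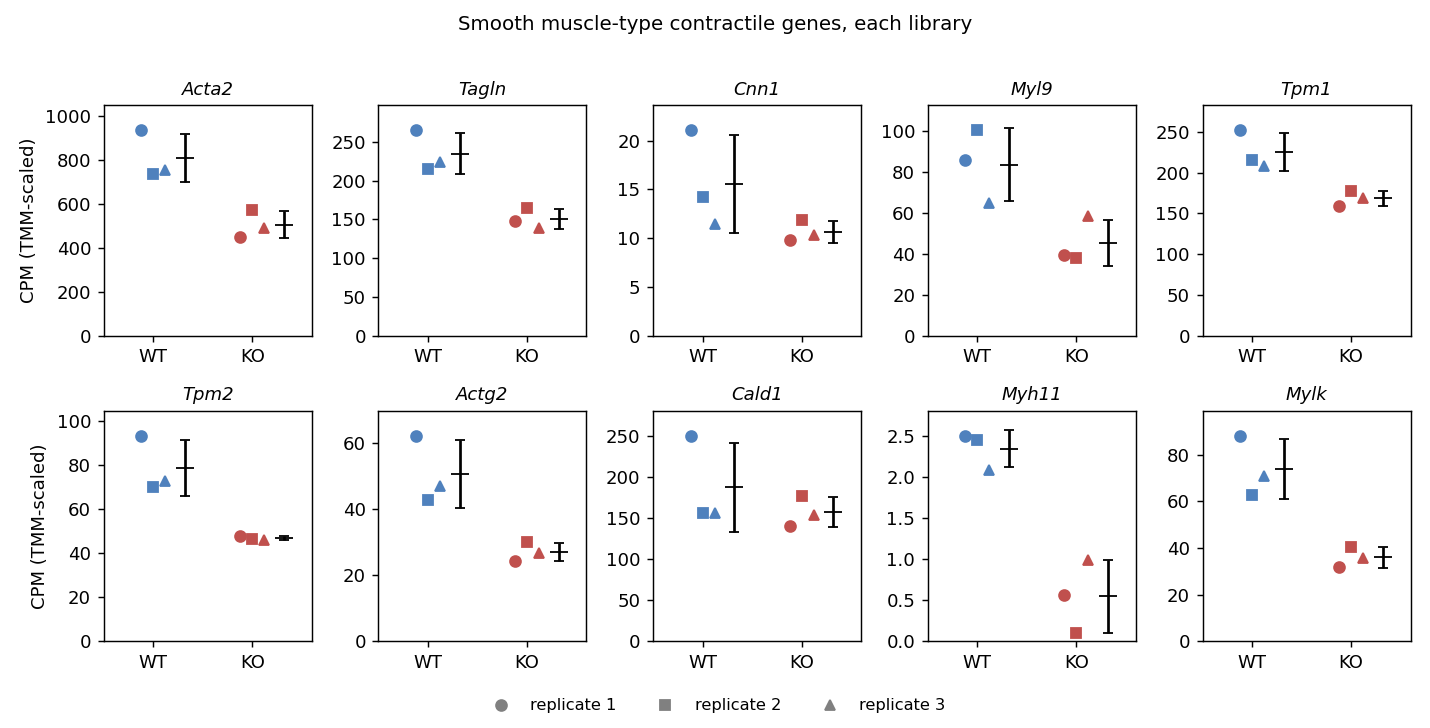
CPM (TMM-scaled) of each contractile gene on the y axis, starting at 0, in the 3 MSR1 WT (blue) and 3 MSR1 KO (red) libraries, with the group mean and SD beside the points. The groups overlap for Cnn1 and Cald1 and are apart for the other 8 genes, and replicate 1 is the highest MSR1 WT library in every gene but Myl9.

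Acta2 encodes smooth muscle alpha-actin, the filament protein by which contractile stromal cells are usually recognised. In the deposited table, whose coordinates are given for all members, it lies at chr19:34241090-34255336 of GRCm38 on the minus strand (ENSMUSG00000035783.8). Levels are given as CPM, the count of a gene relative to its library's total after TMM scaling. Acta2 was at 449.6, 570.0 and 491 CPM in MSR1 KO replicates 1 to 3 and at 934, 736 and 753 CPM in the MSR1 WT libraries. The highest MSR1 KO library thus stayed below the lowest MSR1 WT library. The means were 503.6 ± 61.1 CPM in MSR1 KO and 808 ± 109.9 CPM in MSR1 WT (SD, n = 3 each), and the log2 fold change was -0.68 (SE 0.119, 95% interval -0.95 to -0.41, adjusted p = 0.024). Acta2 alone made up 42.8 to 46.7% of the summed CPM of the 10 genes in every library.

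Actg2, the enteric smooth muscle gamma-actin (chr6:83512905-83536265, minus strand), was at 24.4, 30.02 and 26.7 CPM in MSR1 KO and at 62.3, 42.8 and 47.1 CPM in MSR1 WT. Here too the groups were apart, and MSR1 WT replicate 1 was the highest. The MSR1 KO mean was 53.3% of the MSR1 WT mean, 27.1 ± 2.81 against 50.7 ± 10.2 CPM, and the log2 fold change was -0.91 (SE 0.149, adjusted p = 0.021). Because actins differ by few residues, reads could have been shared among them, so the transcripts were cut into stretches of 75 bases. Of the stretches in each of the 10 members, 0 occurred in a transcript of another gene on the same strand.

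Tagln encodes transgelin (SM22), which bundles actin filaments. It was at 149, 165 and 139 CPM in MSR1 KO and at 265, 215 and 225 CPM in MSR1 WT, with no overlap. Its log2 fold change was -0.64 (SE 0.101, 95% interval -0.87 to -0.41, adjusted p = 0.019). Tagln lies at chr9:45929619-45936058 on the minus strand, and 62.4% of its exon bases (1241 bases) are covered by an exon of an antisense gene, AC122273.2 (ENSMUSG00000111521.1). That gene had 51.4 ± 7.30 CPM in MSR1 KO and 85.2 ± 18.3 CPM in MSR1 WT. The strand setting of the counting is not given in the sources used here, so reads of Tagln and of its antisense partner cannot be told apart.

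Cnn1, the basic calponin that inhibits the myosin ATPase (chr9:22099216-22109630, plus strand), was at 9.77, 11.9 and 10.3 CPM in MSR1 KO and at 21.1, 14.2 and 11.4 CPM in MSR1 WT. MSR1 WT replicate 3 fell within the MSR1 KO range, so the groups overlapped. The log2 fold change was -0.55 (SE 0.219, 95% interval -1.05 to -0.045, adjusted p = 0.22). Cald1, which encodes caldesmon, an actin- and calmodulin-binding brake on contraction (chr6:34598500-34775473, plus strand), was at 140.4, 178 and 155 CPM in MSR1 KO and at 251, 156 and 156 CPM in MSR1 WT. Apart from MSR1 WT replicate 1 all libraries were alike, and the test gave -0.25 (SE 0.186, 95% interval -0.68 to 0.17, adjusted p = 0.53). Without that library the Cald1 log2 fold change was 0.010, and that of Cnn1 was -0.27.

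The tropomyosins coil along the groove of the actin filament and set where myosin may bind. Tpm1 (chr9:67022590-67049406, minus strand) was at 160, 178 and 169 CPM in MSR1 KO against 252, 216 and 209 CPM in MSR1 WT. Tpm2 (chr4:43514711-43523765, minus strand) was at 47.6, 46.5 and 46.0 CPM against 93.2, 69.8 and 72.7 CPM. For both genes the groups were apart, and the MSR1 KO libraries were the tighter group, with a Tpm2 mean of 46.7 ± 0.837 CPM beside 78.6 ± 12.8 CPM in MSR1 WT. Tpm1 fell by 0.42 on the log2 scale (SE 0.0892, adjusted p = 0.039), the smallest change of the 7 genes that passed, and Tpm2 fell by 0.75 (SE 0.115, adjusted p = 0.018).

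Myl9 encodes the regulatory light chain of smooth muscle myosin II, the subunit that is phosphorylated to start contraction (chr2:156775420-156781658, plus strand). It was at 39.4, 37.8 and 58.2 CPM in MSR1 KO and at 85.5, 100.3 and 64.8 CPM in MSR1 WT. The groups were apart, but MSR1 KO replicate 3 came close to MSR1 WT replicate 3, and Myl9 was the member for which MSR1 WT replicate 2 and not replicate 1 was highest. Its log2 fold change was -0.89 (SE 0.203, 95% interval -1.35 to -0.42, adjusted p = 0.048), just under the threshold.

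Mylk encodes myosin light chain kinase, the enzyme that acts on Myl9 (chr16:34745210-35002420, plus strand). Its level was 31.9, 40.5 and 35.6 CPM in MSR1 KO and 88.2, 62.9 and 70.9 CPM in MSR1 WT, so that the MSR1 KO mean was 48.6% of the MSR1 WT mean. Mylk had the lowest adjusted p of the members, 0.014, with a log2 fold change of -1.04 (SE 0.141, 95% interval -1.36 to -0.72). Exons of 2 genes on the opposite strand cover 4.87 and 1.99% of its exon bases, so a small part of its reads could be theirs. Myh11, the smooth muscle myosin heavy chain and the most restricted marker of mature smooth muscle, was close to the limit of detection (chr16:14194527-14291408, minus strand). It had 20, 4 and 46 counts in MSR1 KO and 103, 116 and 86 counts in MSR1 WT, that is 0.557, 0.100 and 0.990 CPM against 2.50, 2.44 and 2.08 CPM. Each MSR1 KO library was below each MSR1 WT library, and the MSR1 KO libraries differed widely among themselves. The log2 fold change of Myh11 was -2.07 (SE 0.597, 95% interval -3.44 to -0.70), with an adjusted p of 0.098 by edgeR and 0.0064 by DESeq2. It was -1.58 without MSR1 KO replicate 2 and -2.84 without MSR1 KO replicate 3.

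**Figure D2:**
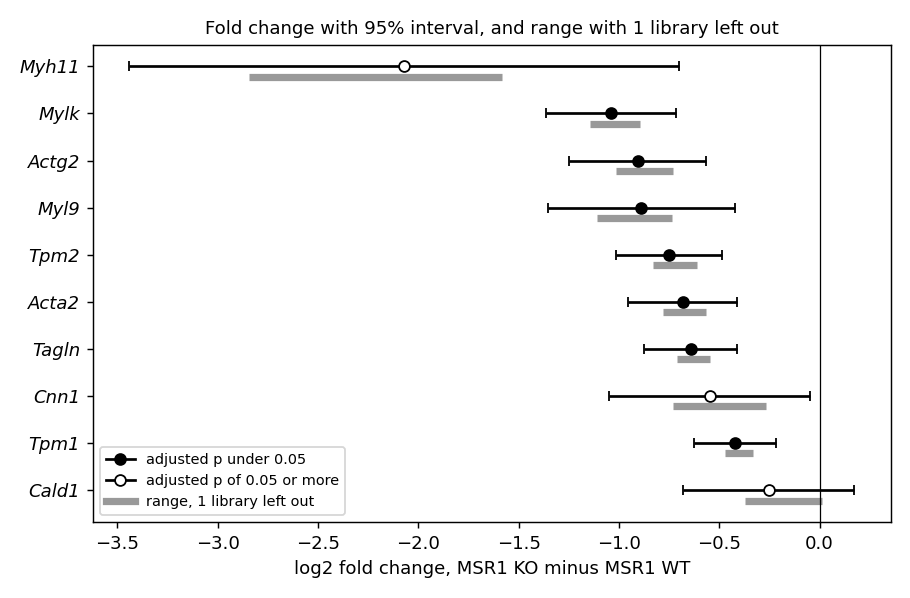
Log2 fold change (MSR1 KO minus MSR1 WT) of each contractile gene on the x axis with its 95% interval, filled where the adjusted p is under 0.05, and a grey bar for the range over the 6 fits that leave out 1 library. All 10 estimates are below 0, from -2.07 for Myh11 to -0.25 for Cald1, and the grey bar of Cald1 alone reaches past 0, to 0.010.

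How many members passed depended on single libraries. Without MSR1 KO replicate 1, 0 of 10 were lower at an adjusted p under 0.05, where 83 of all genes were. It was 2 of 10 without MSR1 WT replicate 1 (53 of all genes) and without MSR1 KO replicate 3 (151). Leaving out MSR1 WT replicate 2 left 4 (141), MSR1 KO replicate 2 left 5 (257) and MSR1 WT replicate 3 left 7 (372), with 16801 to 16886 genes tested in these fits. Mylk stayed under 0.05 in 5 of the 6 fits, Tpm2 in 4, Tagln and Actg2 in 3, Acta2 and Myl9 in 2 and Tpm1 in 1. The size of the differences moved less than the calls: the median of the members lay between -0.77 and -0.59, and Acta2 between -0.78 and -0.56. With the study's definition 5 to 8 members were lower in these 6 fits, beside 673 to 937 of all genes.

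The members had their highest library largely in common. MSR1 WT replicate 1 held the highest level of the 6 libraries in 9 of the 10 genes, in 17 of 22 other smooth muscle genes, in 12 of 16 stromal markers and in 18.7% of all tested genes. The lowest MSR1 WT library was replicate 2 in 6 members and replicate 3 in 4. Within the MSR1 KO group, replicate 2 was highest in 7 members and replicate 1 lowest in 6. The summed level of the 10 genes was 1052, 1257 and 1132 CPM in MSR1 KO and 2055, 1616 and 1612 CPM in MSR1 WT. In other words, the contractile genes took 0.105 to 0.125% of all counts in the MSR1 KO libraries and 0.163 to 0.207% in the MSR1 WT libraries.

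Levels of different genes were compared per kilobase of exon (CPM per kb). In the MSR1 WT libraries the order was Acta2 (368 ± 50.04), Tagln (118 ± 13.4), Myl9 (71.9 ± 15.4), Tpm1 (34.8 ± 3.60), Actg2 (32.6 ± 6.58), Tpm2 (27.0 ± 4.39), Cald1 (15.6 ± 4.52), Mylk (6.57 ± 1.15), Cnn1 (5.69 ± 1.82) and Myh11 (0.308 ± 0.0298, SD, n = 3). The MSR1 WT ranges of Tpm1 and Actg2 overlapped, as did those of Actg2 and Tpm2 and those of Mylk and Cnn1. Exon lengths are those of GENCODE M21, which holds newer versions of Acta2, Myh11 and Mylk than the deposited table. Over all 6 libraries Acta2 ranked 109th and Myh11 15084th of 16368 tested genes. Smooth muscle actin mRNA was therefore among the more abundant messages of these libraries, while the smooth muscle myosin heavy chain was near the bottom. Which cells this mRNA came from was not tested.

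To see whether the genes differed by the same factor, each was divided by Acta2 of the same library. The ratio of Tagln to Acta2 differed by 0.04 between the group means on the log2 scale, that of Tpm2 by -0.06, that of Cnn1 by 0.17 and that of Myl9 by -0.21, and for these 4 genes the groups overlapped. Relative to Acta2, Mylk was lower in each MSR1 KO library than in each MSR1 WT library, by 0.35 on the log2 scale on average (-3.82 to -3.79 against -3.55 to -3.40). The same order held for Actg2 (difference -0.21) and Myh11 (difference -1.93). Cald1 and Tpm1 went the other way, with every MSR1 KO library above every MSR1 WT library and differences of 0.46 and 0.26. With 3 libraries against 3 an exact permutation test (two-sided) cannot give a p under 0.10, so these ratios are given as values. They were computed for the members only, so it is open how often other genes separate the groups in this way.

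**Figure D3:**
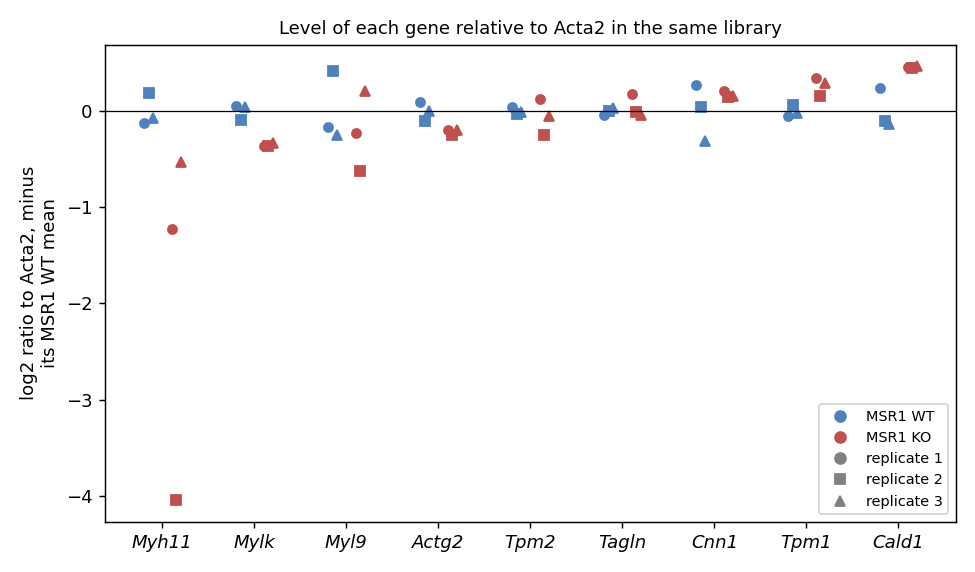
Log2 ratio of each contractile gene to Acta2 in the same library, set to 0 at the MSR1 WT mean (y axis), for MSR1 WT (blue) and MSR1 KO (red) libraries. Red points lie below blue ones for Myh11, Mylk and Actg2 and above them for Tpm1 and Cald1, and they overlap for Myl9, Tpm2, Tagln and Cnn1.

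All contractile genes but Cald1 and Mylk were set in a family with cytoplasmic members. The share of the smooth muscle-type member in its family was computed per kilobase of exon. Counts were per gene, so different transcripts of the same gene, smooth muscle or cytoplasmic, could not be told apart. Acta2 and Actg2 together were 24.3, 24.5 and 24.3% of the actin total in MSR1 KO and 37.8, 30.2 and 33.5% in MSR1 WT. Cytoplasmic beta-actin (Actb), the most abundant actin per kilobase, showed a log2 fold change of -0.02 (SE 0.0935, adjusted p = 0.95), and gamma-actin (Actg1) had -0.07 (adjusted p = 0.79). Tpm1 and Tpm2 were 15.5 ± 0.0615% of the tropomyosin total in MSR1 KO and 18.6 ± 1.49% in MSR1 WT, where the cytoplasmic Tpm4 fell by 0.54 on the log2 scale (SE 0.0651, adjusted p = 0.0092) and Tpm3 had 0.20 (adjusted p = 0.11). Myl9 was 25.1 ± 5.04% of the regulatory light chains in MSR1 KO and 37.7 ± 4.50% in MSR1 WT, beside a log2 fold change of -0.18 for Myl12a (adjusted p = 0.43) and 0.09 for Myl12b (adjusted p = 0.56). Tagln made up 51.0 ± 2.41% of the transgelins in MSR1 KO and 57.6 ± 5.57% in MSR1 WT, and the closest libraries were at 52.7 and 52.8%. Cnn1 was the exception among the families, with 6.27 ± 0.375% of the calponins in MSR1 KO and 6.26 ± 1.53% in MSR1 WT, since the cytoplasmic calponins Cnn2 (fell by 0.54 on the log2 scale, adjusted p = 0.017) and Cnn3 (fell by 0.50, adjusted p = 0.047) were lower as well. Myh11 stayed at 0.0880 ± 0.0721% of the myosin II heavy chains in MSR1 KO and 0.330 ± 0.0251% in MSR1 WT, with Myh9 far above it in every library.

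**Figure D4:**
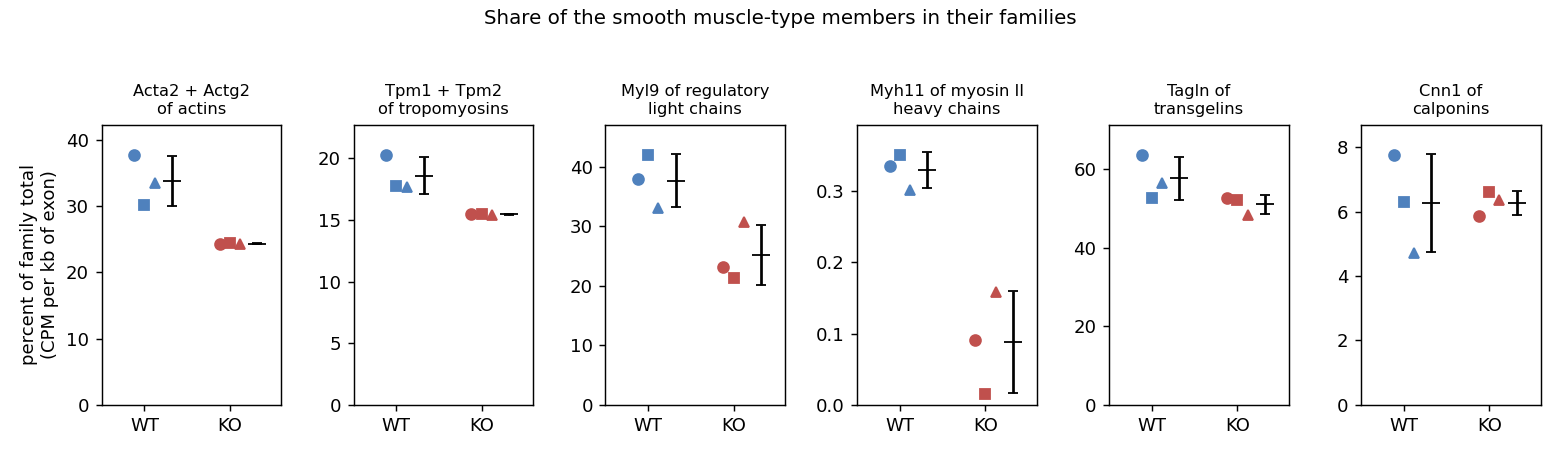
Share of the smooth muscle-type member or members in the family total (y axis, percent of summed CPM per kb of exon, starting at 0) in each MSR1 WT (blue) and MSR1 KO (red) library, with mean and SD. The actin share is 24.3 to 24.5% in MSR1 KO and 30.2 to 37.8% in MSR1 WT, and only the calponin shares overlap.

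Other genes of the pathway were taken as fixed lists, also chosen with earlier results of these data known. Of 22 further genes of the smooth muscle contractile apparatus that were tested, 4 fell and 0 rose by edgeR at an adjusted p under 0.05. Of all tested genes 2.66% fell and 2.25% rose. At an unadjusted p 13 were lower and 0 higher, beside 10.2 and 8.65% of all tested genes, and DESeq2 gave 9 and 0, beside 5.18 and 4.43%. The 4 were the cytoskeletal protein palladin (Palld, -0.67, SE 0.106, adjusted p = 0.019), the actin-binding nexilin (Nexn, -0.73, adjusted p = 0.039), the filament nucleator leiomodin (Lmod1, -0.74, adjusted p = 0.042) and the surface amine oxidase Aoc3 (-1.50, adjusted p = 0.040). All 22 log2 fold changes were negative, with a median of -0.66. Of 18 genes of focal adhesions and actin cross-linking, through which the contractile filaments are anchored, 7 fell and 0 rose by edgeR. This stands beside 2.66 and 2.25% of all tested genes. At an unadjusted p 10 were lower and 0 higher, and by DESeq2 8 and 0. Vinculin (Vcl) fell by 0.64, alpha-actinin 1 (Actn1) by 0.58 and tensin 1 (Tns1) by 0.83 on the log2 scale, and the other 4 were Tln2 (-0.64), Parva (-0.55), Pdlim5 (-0.48) and Actn4 (-0.33), while talin 1 (Tln1), the most abundant of them per kilobase, had -0.06 (adjusted p = 0.74).

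The genes of the switch that acts on Myl9 were read next. Among 21 genes for calmodulin, small GTPases, ROCK kinases, myosin phosphatase and the upstream G proteins, 1 fell, Rhoc (-0.74, SE 0.0878, adjusted p = 0.0090), and 0 rose by edgeR, where the unadjusted test gave 5 lower and 1 higher and DESeq2 3 and 1. Of all tested genes 2.66% were lower and 2.25% higher by edgeR, 10.2 and 8.65% at an unadjusted p and 5.18 and 4.43% by DESeq2. The median of the 21 was -0.06. Calm2, the most abundant of them, had -0.15 (adjusted p = 0.45). Of 14 tested SRF partners and regulators, 2 fell and 0 rose by edgeR. The 2 were the LIM-domain cofactors Fhl2 (-0.81, SE 0.131, adjusted p = 0.020) and Tgfb1i1 (-0.69, adjusted p = 0.026). At an unadjusted p 3 of the 14 were lower and 0 higher, and by DESeq2 2 and 0. The log2 fold change of Srf was -0.14 (adjusted p = 0.39), that of Mkl1 -0.0012 (adjusted p = 0.996) and that of Mef2d, the most abundant per kilobase, 0.04 (adjusted p = 0.82). Myocd, which encodes myocardin, the partner of SRF in smooth muscle, had 0, 9 and 0 counts in MSR1 KO and 13, 5 and 17 in MSR1 WT and was too low to test. Of 19 skeletal, cardiac and neuronal paralogs of the members (actins, myosin subunits, light chain kinases and Tagln3), 1 had enough reads to be tested, the skeletal light chain Mylpf (0.23), and it did not pass. The sum of the 19 was at most 1.20 CPM in a library.

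**Figure D5:**
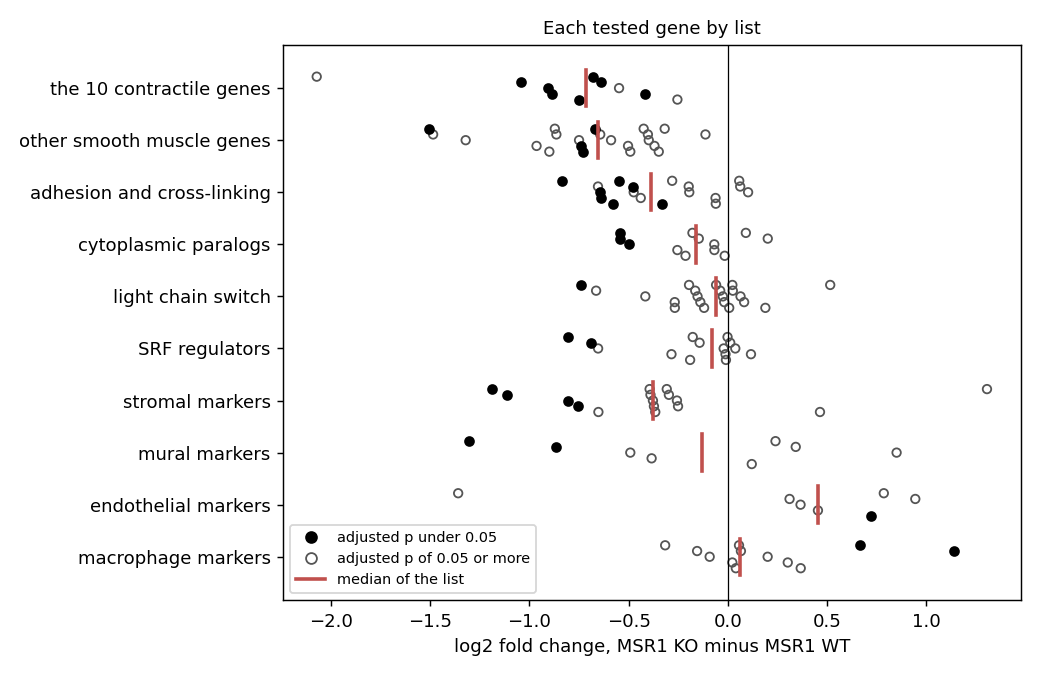
Log2 fold change (x axis, MSR1 KO minus MSR1 WT) of each tested gene of the 10 contractile genes and of 9 other lists (rows), filled where the adjusted p is under 0.05, with the list median as a red line. The median is -0.72 for the contractile genes, -0.66 for other smooth muscle genes, -0.06 for the light chain switch and 0.06 for macrophage markers.

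Markers of other cells were read beside the contractile genes. The 12 macrophage markers summed to 26861 to 28097 CPM in MSR1 KO and 26753 to 28993 CPM in MSR1 WT. Lyz2, Csf1r, Adgre1 and Cd68 were high in each library, so RNA of the labelled cell type was present in each. Single macrophage markers differed all the same, since 2 rose (Fcgr1 by 1.14, adjusted p = 0.018, and Aif1 by 0.67, adjusted p = 0.020) and 0 fell by edgeR. The unadjusted test gave 5 higher and 1 lower and DESeq2 3 and 0, and in 6 of the 12 all MSR1 KO libraries were above the MSR1 WT libraries (12.1% of all tested genes). The 16 stromal markers summed to 2451 to 3173 CPM in MSR1 KO and 3242 to 3917 CPM in MSR1 WT, and the MSR1 KO mean was 75.2% of the MSR1 WT mean, beside 65.1% for the contractile genes. Of these 16 genes 4 fell by edgeR (Pdgfra by 1.19, Cxcl12 by 1.11, Col6a1 by 0.80 and Cdh11 by 0.75 on the log2 scale) and 0 rose, where the unadjusted test gave 10 lower and 1 higher and DESeq2 7 and 1, the higher one being Thy1 (1.31, adjusted p = 0.091). Shares of all tested genes were 2.66% lower and 2.25% higher by edgeR, 10.2 and 8.65% at an unadjusted p and 5.18 and 4.43% by DESeq2. Col1a1 had -0.26 (adjusted p = 0.37), and none of the 16 was at 0 in any library. For every 100 CPM of stromal markers there were 42.3, 39.6 and 46.2 CPM of the contractile genes in MSR1 KO and 52.5, 49.8 and 44.6 in MSR1 WT, and these ranges overlapped. The 8 pericyte and mural markers summed to 38.2 to 50.8 CPM in MSR1 KO and 53.2 to 69.0 CPM in MSR1 WT, with Pdgfrb (-0.87, adjusted p = 0.025) and Notch3 (-1.30, adjusted p = 0.016) lower and 0 higher by edgeR (2 and 0 also at an unadjusted p and by DESeq2). Their median was only -0.13, as 4 of the 8 had a positive value (Abcc9 0.85, Rgs5 0.34, Mcam 0.24 and Kcnj8 0.12), and Rgs5 was at 0 in 1 MSR1 WT library. The part of these markers in the lower contractile genes was not tested. Nor was it tested which cells, macrophages or others, the contractile mRNA came from.

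Of the 5 osteoblast markers tested 1 fell, Spp1 (by 0.79 on the log2 scale), which macrophages make as well, and 0 rose by edgeR (1 at an unadjusted p, 0 by DESeq2). Ibsp had 1.39 (adjusted p = 0.16), with all MSR1 KO libraries above those of MSR1 WT, and Bglap was at 0 in all libraries. The 7 endothelial markers summed to 112 to 135 CPM in MSR1 KO and 77.7 to 113 CPM in MSR1 WT, and these ranges overlapped. Of the 7, Pecam1 rose (0.72, adjusted p = 0.027) and 0 fell by edgeR (1 at an unadjusted p and 1 by DESeq2). Vwf had -1.36 (adjusted p = 0.051), with each MSR1 KO library below each MSR1 WT library. The 8 skeletal muscle markers summed to 4.26 to 5.30 CPM in MSR1 KO and 3.70 to 4.05 CPM in MSR1 WT. Most of this was Tnni2 (0.32, adjusted p = 0.39), with 129 to 181 counts a library, while Des, Ckm and Tnnt3 had few reads and Myog, Myod1, Myf5 and Pax7 were at 0 in every library.

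The genes whose profile over the 6 libraries was most like that of Acta2 were sought among 13601 genes with a mean of at least 1 CPM, by the root mean square difference of the centred log2 CPM. They were Dcbld2 (0.043), Palld (0.056), Prrx1 (0.059), Fkbp9 (0.059) and Amotl1 (0.060). Of the members, Tagln was nearest (0.075, with 12 genes outside the set closer). It was followed by Tpm2 (0.113, 60 genes closer) and Actg2 (0.116, 67 genes closer). Farthest were Myl9 (0.334, 3186 genes closer) and Myh11 (0.633, 12620 genes closer). The 6 libraries were the only points in this measure.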

How the data were processed

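RNA-seq libraries of 3 MSR1 KO and 3 MSR1 WT BMDM co-cultures were analysed. The deposited table holds raw counts per gene and library, on which all results rest. Its other columns were not used. They hold a signal (the count over a size factor), a log2 fold change and a p-value, each computed by the authors. The submitters' processing notes list fastp 0.17.1, HISAT2 2.1.0, DESeq2 1.18.1 and R 3.4.3, whereas the paper names TopHat. Genome build, counting program and strand setting are not given in the sources used here, but 49909 of 52550 genes had the start and end of GENCODE M21 (GRCm38). Gene coordinates are those of the deposited table, and exon lengths are from GENCODE M21.

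Differences were tested with edgeR 4.0.16 under R 4.3.3 (filterByExpr, TMM, glmQLFit, then glmQLFTest), with adjustment by Benjamini-Hochberg over 16402 genes at 0.05. The SE is the absolute log2 fold change divided by the root of the F statistic. Differentially expressed genes by the study's definition had a fold change over 1.5 and an unadjusted p under 0.05. Alternatives were DESeq2 1.42.0, other scalings and filters, a replicate block and each library left out. Scripts were tested on simulated data with known changes. With total counts of 36143518 to 47417448 per library, low genes such as Myh11 (SE 0.597) and Rgs5 (SE 1.01) had wide intervals. Myocd and other genes with few reads could not be tested. Nothing shows whether the libraries of a group came from separate mice, so p-values measure the spread between these libraries.

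The members and lists were chosen with earlier results of these data known. The rule for named genes took all members, Msr1, the cytoplasmic family members, the 5 genes most like Acta2 and, of each list, the genes that passed, the 3 most abundant and the 3 that differed most, of which those that passed and some of the others are printed. Csf1r, Adgre1, Myocd, Rgs5, Kcnj8 and the markers at or near 0 were named after their values were seen. Promoters are from RefSeq GRCm38.p6. No proteins were compared.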

Additional observations from a re-analysis of the deposited data

How the results depend on the processing

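Over 12 alternatives the log2 fold changes of the members gave 119 values, of which 118 were negative. The exception was Cald1 without MSR1 WT replicate 1, at 0.010, and with each library left out Cald1 ranged from -0.37 to 0.010. No scaling moved the median of all genes by over 0.1, the values being -0.034 to 0.0027. DESeq2 called 850 genes lower and 727 higher, against 436 and 369 by edgeR, and of the lists 9 other smooth muscle genes lower and 3 light chain switch genes lower with 1 higher. Without a filter on low counts 288 genes were lower and 237 higher, 1 other smooth muscle gene was lower, and 5 members were, Myl9 (adjusted p = 0.071) and Tpm1 (adjusted p = 0.058) not passing. In these settings the cause was not tested. One G or C in the core raised the members with a CArG match from 1 to 2, by its construction.

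Libraries with the same replicate number showed no shared shift, since their deviations correlated at 0.0036, -0.0015 and -0.028. Whether they were prepared in pairs cannot be told from these values. With the replicate block 1 member was lower at an adjusted p under 0.05, and 78 genes were lower and 59 higher in all. The block left 1 cytoplasmic paralog lower and 0 of the other smooth muscle genes, SRF regulators and adhesion genes.

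With each library left out, fewer samples were fitted. The members lower numbered 0 to 7, all genes lower 53 to 372 and higher 18 to 407, other smooth muscle genes 0 to 4, cytoplasmic paralogs 0 to 2, light chain switch genes 1 to 2, SRF regulators 0 to 2 and adhesion genes 0 to 4. The median of the members was -0.77 to -0.59.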
